A study of Mus musculus with 22 samples.

Results

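The cytosolic ribosomal protein genes code for the proteins of the large and the small subunit of the ribosome that works in the cytoplasm. They were taken by gene symbol: Rpl or Rps followed by a digit, together with Rplp0, Rplp1, Rplp2 and Rpsa, and without the S6 kinase genes, Rps19bp1 and genes named as pseudogenes. Of 23033 genes in the table, 88 met this rule, 53 named for the large and 35 for the small subunit. Levels were measured by 3′ RNA sequencing (CelSeq2, which tags the polyadenylated end of each transcript) in 22 libraries from 8 mice. The libraries came from the hippocampus (3 WT, 4 CD), the cortex (4 WT, 4 CD) and the cerebellum (4 WT, 3 CD). CD mice are circTulp4-deficient. Their Tulp4 allele carries a CRISPR-Cas9 edit at the splice acceptor that forms the circular RNA circTulp4, and the line, on a C57BL/6 background, descends from a single mosaic founder. WT mice carry the unedited allele. Neither genotype received a treatment in these labels, which give no age. The 2 comparisons are between regions, over both genotypes, and between CD and WT within each region.

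Ribosomal proteins are made in near equal amounts in growing cells, one of each per ribosome, and surplus protein is degraded. Their mRNAs are among the most abundant in a cell, and most begin with a C followed by a run of pyrimidines, the 5′ terminal oligopyrimidine (TOP) tract, through which mTORC1 signalling controls how strongly they are translated. In neurons, ribosomal protein mRNAs are also carried into axons and dendrites. The genes have left many processed pseudogenes in the mouse genome, so that short reads from their transcripts often match more than 1 place.

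The tract was looked for in the promoter table of RefSeq (GRCm38.p6), which held 67 of the 88 genes. A run of at least 8 letters C or T that began with C, with its first letter from 20 bases before to 30 bases after an annotated start on the transcribed strand, was present in 40 of the 67, or 59.7%, against 17.8% of all 27025 genes in the table. The letters CCGGAAG, on either strand from 100 bases before to 50 bases after the start, were present in 29.9% of the 67 and in 7.52% of all genes. The letters GATGGCGG, searched in the same way, were present in only 3 of the 67, or 4.48%, and in 1.34% of all genes. These are matches of letters and not mapped sites. The windows below are a selection from the genes that carried the largest regional differences or are widely used as reference genes. Each is 30 bases long, 5′ to 3′ on the transcribed strand, and capitals mark the pyrimidine run. Rps6, Rpl37 and Rps15 were among the genes lowest in the cerebellum against the hippocampus, Rpl13a and Rps18 are common reference genes, and Rps2, which had the largest difference of all, held no such run at its annotated start. Rpsa and Rpl41, also among the genes with the largest falls, and the reference gene Rplp0 held no run either and are not shown.
Rps6 (chr4:86857349-86857378, minus strand): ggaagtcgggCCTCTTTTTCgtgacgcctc
Rpl37 (chr15:5116632-5116661, plus strand): gcgggggtgCTTTCTCTTCCggtctctttg
Rps15 (chr10:80292447-80292476, plus strand): cagcccgtaCTTCCTTTTCCgagtaaccgc
Rpl13a (chr7:45128722-45128751, minus strand): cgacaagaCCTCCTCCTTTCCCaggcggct
Rps18 (chr17:33955647-33955676, minus strand): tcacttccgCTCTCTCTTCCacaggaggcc
Rps2 (chr17:24720048-24720077, plus strand): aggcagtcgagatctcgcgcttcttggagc

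The runs lay close to the annotated starts of Rps6 and Rpl13a and further inside the transcript of Rpl37 and Rps15, by 28 and 25 bases. The tested genes with a start in the promoter table were also counted by whether they held a run, and the difference between both sets was not tested. In the cerebellum against the hippocampus, 18 of 25 tested genes with a run fell and none rose, at a median log2 fold change of -0.39, and 15 of 18 without a run fell and 2 rose, at a median of -0.45. Against the cortex, 9 of 25 with a run fell (median -0.18) and 13 of 18 without (median -0.34). Of all genes tested, 30.7% fell against the hippocampus and 30.8% against the cortex.

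Library depth, as the total of counts with 1 transcript per gene, ran from 2757684 to 8847478. Sets of 5 marker genes for each region were summed per library, in CPM (the count relative to the TMM-scaled library total, TMM being a factor per library that sets most genes equal). The hippocampal markers reached 1415 to 2049 CPM in the hippocampus and at most 496.5 elsewhere, the cortical markers 677.5 to 867.7 in the cortex and at most 159 elsewhere, and the cerebellar markers 4756 to 5941 in the cerebellum and at most 169.7 elsewhere. In the hippocampus 3 libraries held over 1000 CPM of 5 choroid plexus markers, with a range of 131.7 to 8230 over the region against at most 114.9 elsewhere. Markers of other cell types also moved with region. Oligodendrocyte markers summed to 3106 to 4967 in the hippocampus, 1126 to 2438 in the cortex and 1843 to 2636 in the cerebellum, and microglial markers to 182.6 to 219.1, 156.9 to 212.5 and 49.1 to 71.9. The sums in hippocampus, cortex and cerebellum were 1065 to 1337, 480.3 to 727.5 and 812.8 to 1195 for astrocytes, 238.1 to 289.8, 290.9 to 333.6 and 255.5 to 318.5 for endothelial cells, and 4292 to 4652, 5349 to 6207 and 5233 to 6136 for neurons. The astrocyte and neuron sums mix markers that moved in opposite directions. In the cerebellum against the hippocampus, 3 of the 5 astrocyte markers rose and 2 fell at an adjusted p below 0.05 (test given below). The 5 neuronal markers split in the same way, and of all genes tested 30.7% rose and 30.7% fell. No marker in these lists was at 0 throughout a region, and the part of these cell types in the results below was not tested. In whole tissue, fewer cells of a type and less RNA per cell cannot be told apart.

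The edit was checked through the linear Tulp4 transcripts, since a polyadenylated 3′ library does not measure the circular RNA. The counts of the transcript Tulp4-201 beyond those of Tulp4-209 were lower in CD than in WT libraries of the same region, with 1 exception. This excess is a difference of transcript counts, 1 to 72 per library, and does not measure total linear Tulp4. By RT-qPCR and Western blot, the paper found no genotype difference in brain linear Tulp4 (both transcripts summed) or Tulp4 protein. The library labelled CD hippocampus m118 had an excess of 3.98 CPM (16 counts), against 0.424 to 0.573 in the other CD hippocampus libraries and 2.71 to 3.69 in WT. The counts of calls are given with and without it. Of 30 named calls between regions, 3 were lost without it (Rpl12 and Rpl21 in the cortex against the hippocampus, Rps27l in the cerebellum against the cortex), while the interaction and reference gene tests were run with it included.

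Counts were spread very unevenly over the 88 genes, most of which code for proteins of 1 particle. The symbol rule also took in paralogues, such as the assembly gene Rpl7l1, and Rps4l, annotated as a transcribed pseudogene. Rpl4, whose protein lines the exit tunnel of the large subunit, held 177995 counts over the 22 libraries, and Rps20, a protein of the small subunit head, held 100515. Both together took 39.4% of the 706488 counts of these genes. The median gene held 1444 counts, 18 genes held over 10000, and 28 held under 300. At the low end stood genes that every cell translates, such as Rpl10a with 2 counts, Rpl24 with 4 and Rpl10 with 34. Counts were therefore not read as levels when genes were compared with each other.

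Shared sequence was measured over the last 300 bases of each gene's GENCODE M21 transcript, as the share of its 50-base stretches that also occur in a transcript of another gene on either strand. For 87 genes with a transcript, 23 shared none, 17 shared some but under 50%, and 47 shared 50% or more. Their median total counts were 3130, 2343 and 1096. Of the 47 genes with the most shared sequence 17 held under 300 counts, and of the 23 with none 5 did. The rank correlation across the 87 genes was -0.33, as a description over genes in the same libraries. Single genes departed from it. Rps27 held 92 counts and shared all of its 50-base stretches, while its near copy Rps27rt held 15517 although it shared 88.4%. How reads that match several genes were counted is not given in the sources used here.

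**Figure D1:**
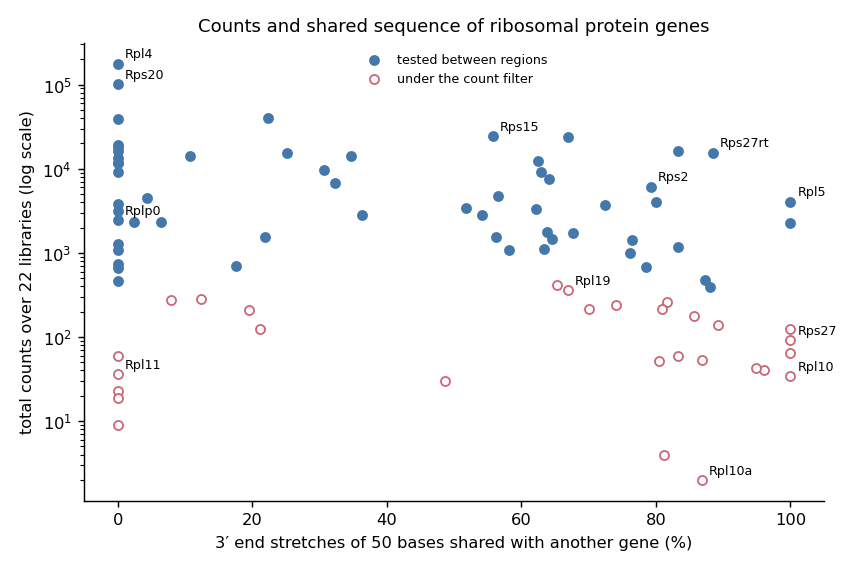
Total counts over 22 libraries (log scale) against the percent of 50-base stretches at the 3′ end that occur in another gene's transcript, 1 point per gene, filled where the gene passed the count filter over 22 libraries. Rpl4 and Rps20 stand highest with 0% shared, and most genes under the filter share over 50%.

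The region comparison asks where in the brain these genes are expressed most. The 88 genes were highest in the hippocampus, intermediate in the cortex and lowest in the cerebellum, as a mean share of all counts. They held 0.56% to 0.609% of counts in the 7 hippocampus libraries, 0.478% to 0.577% in the 8 cortex libraries and 0.475% to 0.503% in the 7 cerebellum libraries. Summed CPM were 6014 ± 230.4 (SD, n = 7), 5523 ± 362.7 (n = 8) and 4405 ± 97.1 (n = 7). On that scale every cerebellum library, at 4345 to 4618, lay below every cortex library, at 5032 to 6211, while cortex and hippocampus, at 5652 to 6399, overlapped. The highest cortex library was CD m190. Without Rpl4 and Rps20 the sums were 3610 ± 174.8, 3357 ± 268.6 and 2691 ± 75.8, so the order did not rest on these 2 genes.

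**Figure D2:**
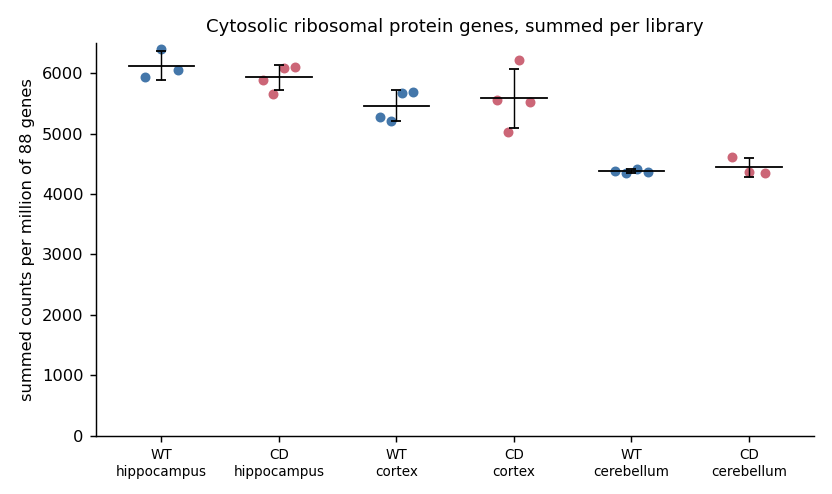
Summed CPM of the 88 genes, 1 point per library, by genotype and region, with the mean and SD of each group. Cerebellum libraries lie between 4345 and 4618, below all others, and CD and WT overlap in every region.

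Of the 88 genes, 58 passed a filter of 5 CPM in at least 2 libraries and were tested among 11133 genes. The 30 others held at most 416 counts each over all libraries. In the cerebellum against the hippocampus, 40 of 58 fell and 2 rose at an adjusted p below 0.05 (edgeR quasi-likelihood test, Benjamini-Hochberg over all genes tested), where 30.7% of all genes tested fell and 30.7% rose. In the cerebellum against the cortex, 28 fell and 3 rose, with a background of 30.8% and 31.2%. The genes that rose include Rps13 in both pairs and Rps27l in the second, and neither reached 5 CPM in any cortex library. In the cortex against the hippocampus, 15 fell and 1 rose, with a background of 17.5% and 18.0%. The median log2 fold changes of the 58 genes were -0.40, -0.21 and -0.14 in that order, beside 0.02, 0.02 and -0.01 over all genes tested. The changes were small: at an adjusted p below 0.01 and a fold above 2, only Rps2 and Rplp1 were called, both in the cerebellum against the hippocampus, where 22.8% of all genes passed, and none of the 58 in the other pairs, where 22.6% (cerebellum against cortex) and 8.42% (cortex against hippocampus) did.

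The counts of calls held without the doubted libraries, apart from the cortex against the hippocampus. Without the 3 hippocampus libraries high in choroid plexus markers, 32 fell and 2 rose in the cerebellum against the hippocampus and 27 fell and 2 rose against the cortex, while 7 fell and none rose in the cortex against the hippocampus. Without CD hippocampus m118, 42, 28 and 14 fell in the same order, and 2, 2 and 0 rose.

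The direction against the cortex depended on scaling. With library totals alone in place of TMM, the median over all genes moved to 0.25 in the cerebellum against the cortex and to 0.20 against the hippocampus. The 58 genes then had medians of 0.03 and -0.22, with 13 higher and 11 lower against the cortex and 3 higher and 25 lower against the hippocampus. Relative to the median of all genes, the difference was -0.22 and -0.41 under either scaling. A change of scaling moves all genes by nearly the same amount, so this agreement was fixed in advance and cannot decide the direction. Under library totals the share of higher calls over all genes was 68.7% and 64.4%, against 50.3% and 50% with TMM.

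The order of mean levels was hippocampus, cortex, cerebellum from high to low in 38 of the 58 genes, and 47 had their lowest mean in the cerebellum. Every cerebellum library lay below every hippocampus library in 25 of the 58, against 19.2% of all genes tested, and below every cortex library in 11, against 17.5%. Every cortex library lay below every hippocampus library in 3, against 6.44%. Those 3 were Rps6, Rpl22 and Rps26, named after their values were seen.

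**Figure D3:**
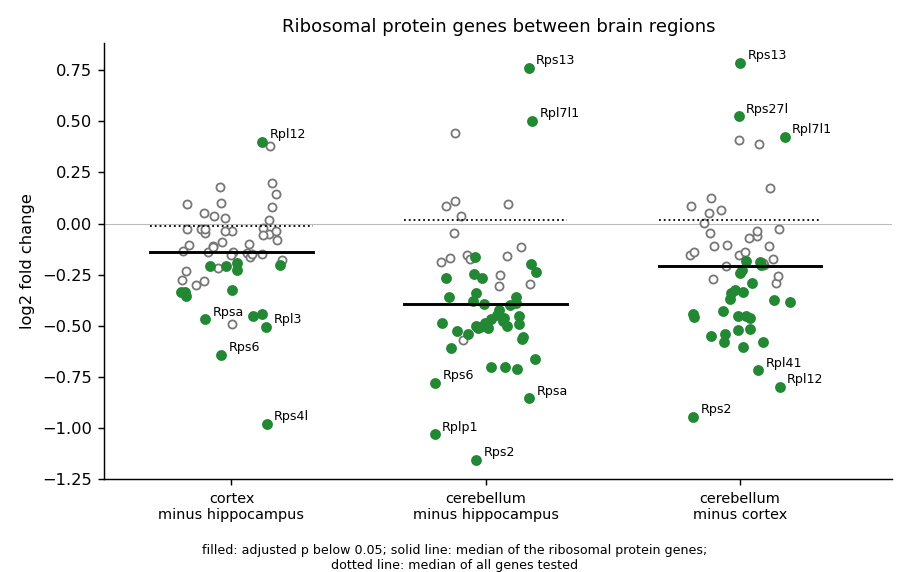
Log2 fold change of the 58 tested genes for each pair of regions (TMM scaling), filled where the adjusted p was below 0.05, with the median of these genes (solid) and of all genes tested (dotted). The median sits at -0.14, -0.40 and -0.21; with library totals alone the median of the pair cerebellum minus cortex turns to 0.03.

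Genes of both subunits fell. In the cerebellum against the hippocampus, 23 of 32 tested large subunit genes fell and 1 rose, at a median log2 fold change of -0.37, and 17 of 26 small subunit genes fell and 1 rose, at -0.49. Against the cortex, 15 and 13 fell, at -0.20 and -0.24. The share of all genes tested that fell was 30.7% against the hippocampus and 30.8% against the cortex. By shared 3′ end sequence, 13 of 18 tested genes that shared none fell in the cerebellum against the hippocampus (median -0.38), 6 of 12 that shared under 50% fell and 1 rose (median -0.29), and 21 of 28 that shared 50% or more fell and 1 rose (median -0.45). Against the cortex, 10 of 18, 4 of 12 and 14 of 28 fell. The difference between these classes was not tested.

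Among small subunit genes, Rps2 had the largest difference. Its protein sits at the entry of the mRNA channel. Its level was 53.8, 58.8 and 62.4 CPM (lowest, median and highest) in the hippocampus, 43.9, 50.9 and 59.6 in the cortex, and 23.1, 25.3 and 30.9 in the cerebellum. The cerebellum libraries thus lay far below both other regions without overlap. The log2 fold change was -1.15 (SE 0.08, adjusted p = 1.94e-12) against the hippocampus and -0.95 (SE 0.08, adjusted p = 6.07e-11) against the cortex. Rps2 shares 79.3% of its 3′ end stretches with other genes and overlaps the long noncoding gene Snhg9, which held 495 counts to its 6129.

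Rpsa, the 40S protein also known as the laminin receptor, was measured at 6.02, 7.55 and 8.34 CPM in the hippocampus, 4.32, 5.37 and 6.47 in the cortex and 2.96, 3.87 and 5.14 in the cerebellum. It fell from hippocampus to cortex (log2 -0.47, SE 0.14, adjusted p = 0.0122) and from cortex to cerebellum (-0.39, SE 0.15, adjusted p = 0.0316). The first call was lost with no filter (adjusted p = 0.094), in WT alone (-0.38) and in CD alone (-0.56). Rps6, the substrate of S6 kinase downstream of mTORC1, was high in the hippocampus alone. Its levels there were 8.89, 12.1 and 14.7, against 5.94, 8.1 and 8.62 in the cortex and 5.46, 6.6 and 8.78 in the cerebellum. It fell by 0.64 on the log2 scale in the cortex (SE 0.14, adjusted p = 0.000718) and by 0.78 in the cerebellum (SE 0.15, adjusted p = 5.71e-05), with -0.14 (adjusted p = 0.436) between these 2. In WT alone the cortical value was -0.62 (adjusted p = 0.0631). Rps15, a protein near the decoding site, went with the cerebellum: 202, 214 and 222 in the hippocampus and 170, 207 and 238 in the cortex overlapped, while the cerebellum stood at 121, 133 and 154 (log2 -0.66, SE 0.08, adjusted p = 3.98e-08 against the hippocampus). Rps14, a core protein of the small subunit platform, fell by 0.54 and 0.58 on the log2 scale against the hippocampus and the cortex (adjusted p = 1.79e-06 and 4.14e-07).

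Rps25, needed for initiation at internal ribosome entry sites, resembled Rps6. Its level was 14, 16.6 and 18.4 in the hippocampus, 7.67, 11.6 and 14.9 in the cortex and 9.53, 12.3 and 14.3 in the cerebellum, with a log2 fold change of -0.44 (SE 0.12, adjusted p = 0.00474) in the cortex and -0.36 (SE 0.12, adjusted p = 0.0138) in the cerebellum. The cortical value was -0.22 in WT alone, where it was not called (adjusted p = 0.479), and -0.67 in CD alone. Rps25 shares 63.7% of its 3′ end stretches with another gene and overlaps Ccdc84, which held 2156 counts to its 1764.

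The lateral stalk of the large subunit, formed by Rplp0 and the acidic proteins Rplp1 and Rplp2, recruits translation factors. All 3 fell in the cerebellum against the hippocampus, as did 30.7% of all genes tested. Rplp1 was measured at 190, 244.3 and 275 CPM in the hippocampus, 102, 184 and 250 in the cortex and 86.2, 121 and 151 in the cerebellum. The cerebellum lay below the hippocampus in every library (log2 -1.03, SE 0.15, adjusted p = 2.85e-06), and the cortex libraries spanned both. Its fall in the cortex (-0.45, SE 0.15, adjusted p = 0.0178) was no longer called without WT hippocampus m240, at -0.40 (adjusted p = 0.0509), without the 3 libraries high in choroid plexus markers, at -0.46 (adjusted p = 0.0606), or in WT alone, at -0.34 (adjusted p = 0.287). Rplp2 fell by 0.51 in the cerebellum (SE 0.10, adjusted p = 0.00013) and Rplp0 by 0.34 (SE 0.09, adjusted p = 0.00197). Rplp0, often used as a reference gene, stood at 17.8, 20.6 and 22.3, then 15.4, 18.9 and 20.6, then 14.7, 16 and 18.4, with overlap between all regions.

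Rpl12, at the base of the same stalk, had another order. Its levels were 6.3, 7.21 and 10.6 in the hippocampus, 7.75, 9.94 and 13.4 in the cortex and 4.56, 5.73 and 7.34 in the cerebellum, and the last 2 did not overlap. It fell in the cerebellum against the cortex by 0.80 on the log2 scale (SE 0.15, adjusted p = 4.51e-05) and was the 1 gene that rose in the cortex against the hippocampus (0.40, SE 0.14, adjusted p = 0.0289). That rise was lost when any of 6 single libraries was left out (CD hippocampus m118 and m138, WT hippocampus m162 and m244, CD cortex m190 and m242), at 0.34 to 0.52 over all leave-outs. It was also lost with library totals (adjusted p = 0.054), with no filter (adjusted p = 0.0786), without the libraries high in choroid plexus markers (adjusted p = 0.0836) and in WT alone, at 0.20 (adjusted p = 0.583).

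Rpl37, a small zinc-binding protein of the large subunit, had 145, 170 and 197 CPM in the hippocampus, 126, 152 and 168 in the cortex and 94.2, 106 and 111 in the cerebellum. The cerebellum stood clear of both, with -0.71 (SE 0.08, adjusted p = 1.63e-08) against the hippocampus and -0.52 (SE 0.08, adjusted p = 1.74e-06) against the cortex. Rpl41, the smallest ribosomal protein, fell by 0.70 (SE 0.13, adjusted p = 4.77e-05) and 0.72 (SE 0.13, adjusted p = 2.63e-05), with levels of 62.2, 79.1 and 86.7, then 54, 77.7 and 99.7, then 34.6, 40.5 and 66.1, which overlap at their edges. Rpl21 fell by 0.70 in the cerebellum against the hippocampus (SE 0.14, adjusted p = 7.65e-05). In the cortex its value was -0.34 (adjusted p = 0.0444), and this call was lost in 10 of 22 leave-outs, at -0.40 to -0.22, with the mouse as a replicate block, at -0.32 (adjusted p = 0.0604), with limma-voom, with summed transcripts, and in WT alone (-0.17) or CD alone (-0.50). Rpl3, which reaches into the peptidyl transferase centre, fell in the cortex (-0.50, SE 0.16, adjusted p = 0.0144) and the cerebellum (-0.50, SE 0.16, adjusted p = 0.00984). Its levels were 12.1, 12.7 and 15.4 in the hippocampus, 4.55, 9.53 and 13.9 in the cortex and 7.7, 9.53 and 11.8 in the cerebellum. The cortical call was lost without the libraries high in choroid plexus markers (-0.46, adjusted p = 0.0871), in WT alone (-0.71, adjusted p = 0.0544) and in CD alone (-0.30, adjusted p = 0.304).

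Of 9 genes of the peptide exit tunnel, 7 were tested and 4 of them fell in the cerebellum against the hippocampus, beside 30.7% of all genes tested. The most counted, Rpl4, stood at 1318 to 1805 CPM in the hippocampus and 1051 to 1182 in the cerebellum, with a log2 fold change of -0.50 (SE 0.07, adjusted p = 2.25e-06). Rpl31 fell against the cortex by 0.55 (SE 0.13, adjusted p = 0.000658), but all of its 3′ end stretches are shared and it overlaps Tbc1d8. Rpl37rt, a near copy of Rpl37, fell against the cortex by 0.54 (SE 0.17, adjusted p = 0.00821), with the hippocampus library of CD m242 at 255 CPM against 78.7 to 144 in the others. That call was lost with library totals, at -0.30 (adjusted p = 0.12), and in CD alone, at -0.63 (adjusted p = 0.0669).

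**Figure D4:**
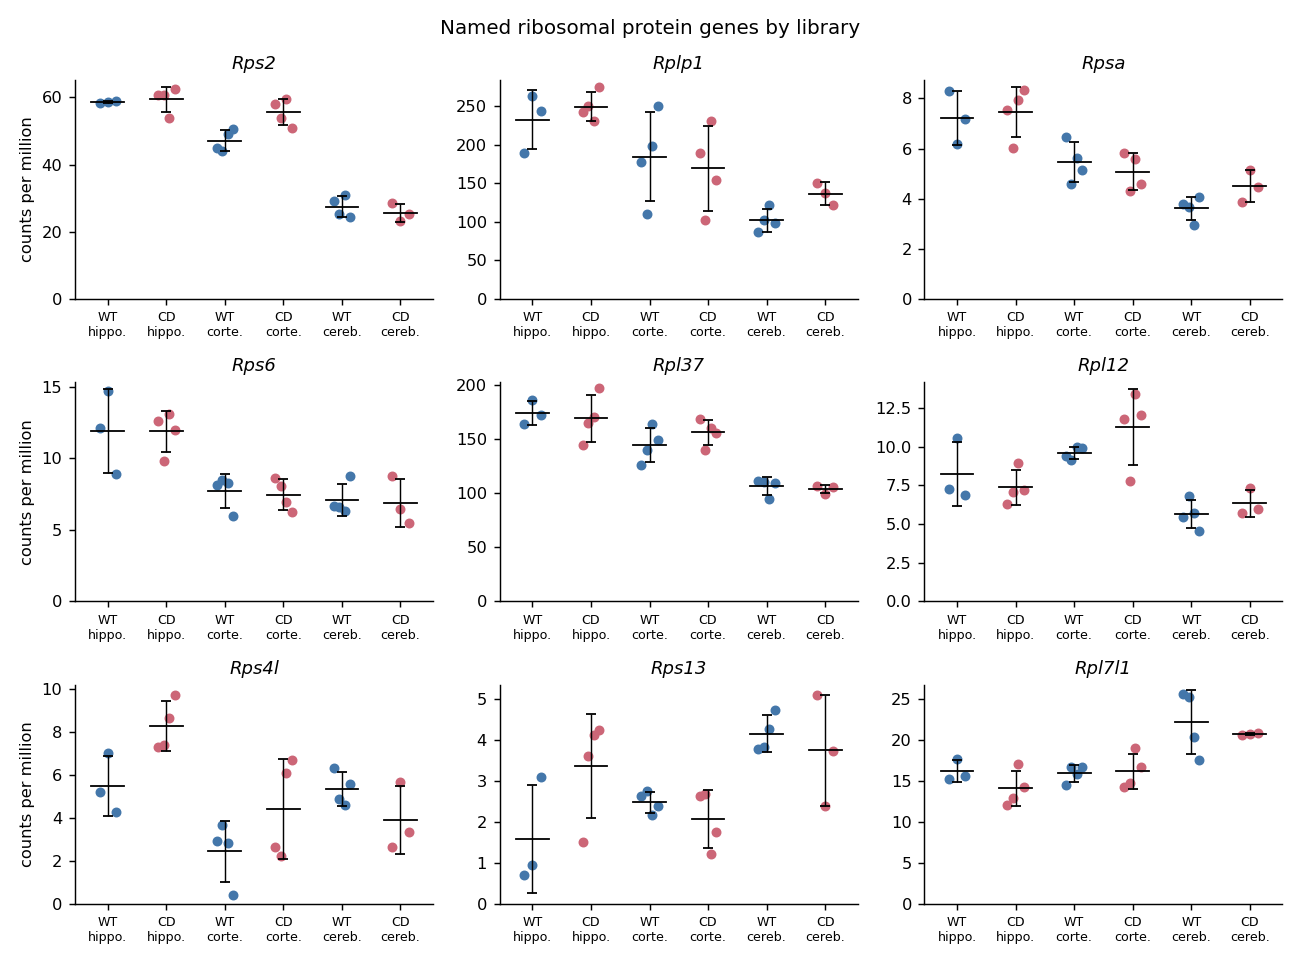
Levels in CPM of 9 named genes, 1 point per library, by genotype (WT blue, CD red) and region, with the mean and SD of each group on axes that start at 0. Rps2, Rplp1, Rpsa and Rpl37 are lowest in the cerebellum, Rps6 is high in the hippocampus alone, and Rps13 and Rpl7l1 are highest in the cerebellum.

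A few genes went the other way, and they were mostly paralogues or thinly counted. Rpl7l1, a paralogue of Rpl7 that acts in the assembly of the large subunit, was measured at 12.1, 15.2 and 17.7 in the hippocampus, 14.2, 16.2 and 19 in the cortex and 17.6, 20.7 and 25.6 in the cerebellum. It rose by 0.50 (SE 0.11, adjusted p = 0.000253) against the hippocampus and by 0.42 (SE 0.10, adjusted p = 0.00109) against the cortex. The value against the cortex was 0.36 in CD alone, where it was not called (adjusted p = 0.0613), and 0.66 with library totals. Rpl7 itself held 238 counts in all and did not pass the filter, at 0.755 to 2.35 in the hippocampus and 2.24 to 3.3 in the cerebellum. Rps13, of the small subunit, rose by 0.76 (SE 0.28, adjusted p = 0.0226) and 0.79 (SE 0.27, adjusted p = 0.0157) on 389 counts in all. It passed the filter through 2 cerebellum libraries alone, the region where it was higher, so its call is given as a description, and without either of these libraries it was not tested. Of the 58 tested genes 55 reached the filter level in all 3 regions, and Rpl23a, like Rps13, in the cerebellum alone. Rps27l reached it in the hippocampus and the cerebellum but in no cortex library. The hippocampus libraries of Rps13 ran from 0.692 to 4.24. Its first value was 0.60 (adjusted p = 0.0746) without WT hippocampus m162, 0.61 (adjusted p = 0.084) without m240, 1.18 without m244 and 1.27 without the libraries high in choroid plexus markers.

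Rps27l, a paralogue of Rps27 that responds to p53, rose in the cerebellum against the cortex by 0.52 (SE 0.23, adjusted p = 0.0492), a call lost in 16 of the leave-outs, which gave 0.38 to 0.62, and with DESeq2 (adjusted p = 0.0625), no filter (adjusted p = 0.0954) and in WT alone (0.21, adjusted p = 0.652). Rps27l passed the filter through 1 hippocampus and 2 cerebellum libraries, with no cortex library, so its call is given as a description. Rps4l, a paralogue of Rps4x, fell in the cortex against the hippocampus by 0.98 (SE 0.26, adjusted p = 0.00383), where Rps4x had -0.22 (SE 0.09, adjusted p = 0.0535). In WT alone and in CD alone the adjusted p of Rps4l was 0.0509 and 0.0528. Its levels were 4.28, 7.3 and 9.75 in the hippocampus and 0.396, 2.87 and 6.72 in the cortex, and it is annotated as a transcribed pseudogene that overlaps Tmtc1, which held 1670 counts to its 701. The RNA-binding protein gene Rpl22 fell in the cortex (-0.35, SE 0.07, adjusted p = 0.000214) and the cerebellum (-0.42, SE 0.07, adjusted p = 1.47e-05) and its paralogue Rpl22l1 in the cerebellum (-0.38, SE 0.13, adjusted p = 0.0112). Rpl22 stood at 92.7, 104 and 111 in the hippocampus, 70.5, 84.4 and 92.4 in the cortex and 71.4, 79.2 and 82.7 in the cerebellum. Rps27rt fell by 0.49 against the hippocampus (SE 0.09, adjusted p = 4.08e-05), while Rps27 held too few counts to be tested. The paralogues Rpl3l, Rpl36al and Rpl39l, with 19, 213 and 9 counts, were not tested, nor was Rpl36a, with 65. Rpl39 was tested and stood at -0.11 (adjusted p = 0.515) in the cerebellum against the hippocampus.

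Of the pair that carries 5S rRNA and binds Mdm2, Rpl5 fell in the cerebellum against the hippocampus by 0.39 (SE 0.15, adjusted p = 0.0228), while Rpl11 held 36 counts in all, at most 0.622 CPM, and was not tested. Rps27a, made as a fusion to ubiquitin, held 54 counts. Of 9 genes listed for Diamond-Blackfan anemia, 6 were tested. In the cerebellum against the hippocampus 4 of the 6 fell, beside 30.7% of all genes, against the cortex 3 fell, beside 30.8%, and in the cortex against the hippocampus 1 fell, beside 17.5%.

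Reference genes for RT-qPCR are used as if their level were constant. Rpl13a had 114, 138.1 and 156 CPM in the hippocampus, 110, 130 and 143 in the cortex and 92.2, 101 and 109 in the cerebellum, and fell by 0.46 in the last against the first (SE 0.07, adjusted p = 7.46e-06). Rps18 fell by 0.45 (SE 0.20, adjusted p = 0.0489). Rpl19 and Tbp, a transcription factor gene, were the reference genes of the study. Rpl19 held 362 counts, did not pass the filter, and stood at 1.73 to 3.39, 2 to 4.35 and 1.69 to 3.26 CPM in hippocampus, cortex and cerebellum. Tbp rose in the cerebellum by 0.60 against the hippocampus (SE 0.23, adjusted p = 0.0244) and by 0.88 against the cortex (SE 0.23, adjusted p = 0.0015), with regional medians of 6.9, 6.59 and 11.7.

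Other genes of translation did not fall as a block. Among all genes tested, 30.7% rose and 30.7% fell in the cerebellum against the hippocampus, the pair used here. Of 68 tested genes of the mitochondrial ribosome, 5 rose and 7 fell in the cerebellum against the hippocampus, at a median of 0.04. Of 10 genes listed for elongation, 3 rose and 4 fell. That list holds the enzyme genes Eef2k and Eef1akmt1 beside the factors themselves. Eef1a1, the main elongation factor of most cells, stood at -0.995 (adjusted p = 1.62e-07) and its neuronal and muscle form Eef1a2 at 0.50 (adjusted p = 1.38e-06). The kinase gene Eef2k, 1 of the 3 that rose and no elongation factor, stood at 0.90 (adjusted p = 1.43e-07). Of 29 initiation factor genes 4 rose and 9 fell, at a median of -0.12, with Eif3e at -0.64 (adjusted p = 0.00149). Of 18 other genes with TOP mRNAs 1 rose and 7 fell, at a median of -0.15. The poly(A)-binding protein gene Pabpc1, which is also in the initiation list, stood at -1.13 (adjusted p = 0.000391), Tpt1 at -0.89 (adjusted p = 0.0155) and Vim, an intermediate filament gene, at 1.5 (adjusted p = 5.78e-10). Of 36 ribosome biogenesis genes 3 rose and 7 fell, at a median of -0.03, with the RNA polymerase I subunit genes Polr1b at 1.5 (adjusted p = 1.2e-08) and Polr1a at -0.73 (adjusted p = 0.000453). Of 11 genes that control ribosomal protein synthesis none rose and 3 fell (Mycl, Trp53 and Tsc2), with Mycl, a Myc family gene, at -2.57 (adjusted p = 4e-06), beside a median of 0.00.

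The genotype comparison asks whether reduced circTulp4 goes with a change of these genes. By RT-qPCR, the paper found brain circTulp4 lowered in CD mice but not absent. None of the ribosomal protein genes was called between CD and WT at an adjusted p below 0.05 in any region by edgeR (0 of 55 in the hippocampus, 0 of 55 in the cortex, 0 of 57 in the cerebellum), nor by DESeq2 or limma-voom. Over all genes 0.0%, 0.0101% and 0.0% were called. At an unadjusted p below 0.05, 1, 2 and 5 members passed, with a background of 4.22%, 3.32% and 4.55%. Over the 3 regions together (limma-voom with the mouse as a random block) 0 of 58 were called, beside 0.0% of all genes, and 1 had an unadjusted p below 0.05, beside 3.57%. Median log2 fold changes were -0.03, 0.08 and 0.01 by region and 0.02 over the regions together, beside -0.01, 0.00 and 0.00 by region for all genes. Without CD hippocampus m118 no member was called in the hippocampus either, at a median of -0.0014.

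In the cortex 40 of 55 genes had fitted levels above 0 for CD minus WT, but no gene passed and summed CPM overlapped, at 5032 to 6211 in CD and 5215 to 5689 in WT. CD m190 had the highest sum. Without it the cortical median was 0.039, and without the other libraries in turn it was up to 0.13. The precision was limited in simulated counts of the same size, which gave all genes the same spread. Of genes changed by 1 on the log2 scale, 90.7%, 91.9% and 97% were recovered in hippocampus, cortex and cerebellum. Of those changed by 0.5, it was 12.5%, 24.7% and 12.6%.

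**Figure D5:**
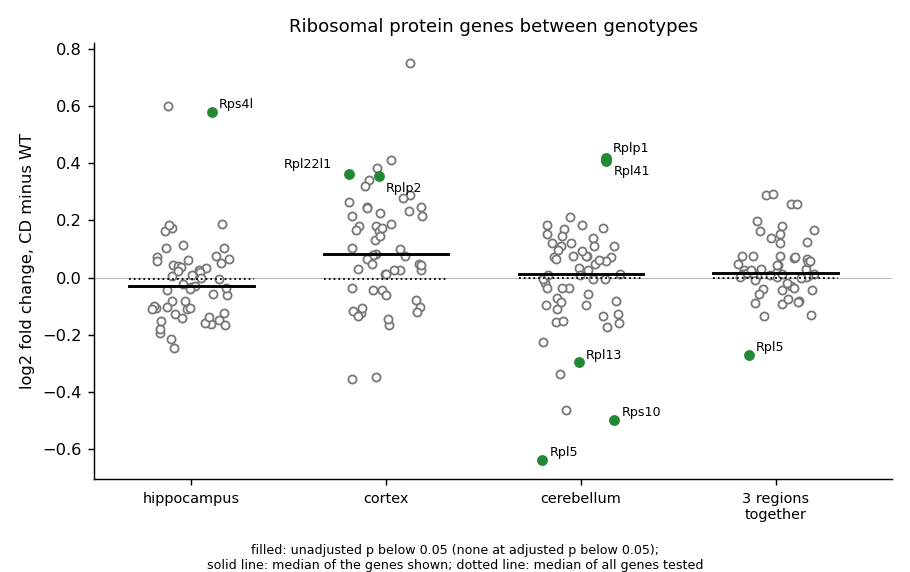
Log2 fold change, CD minus WT, of the tested ribosomal protein genes in each region and over the regions together, filled where the unadjusted p was below 0.05, with the median of these genes (solid) and of all genes tested (dotted). Medians lie at -0.03, 0.08, 0.01 and 0.02, and no gene had an adjusted p below 0.05.

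The genes with the smallest unadjusted p are given by library, in order of mouse number. In the hippocampus, Rps4l had 5.19, 7.01 and 4.28 CPM in WT and 7.3, 7.41, 8.67 and 9.75 in CD, with every CD library above every WT library (log2 0.58, SE 0.24, unadjusted p = 0.0312, adjusted p = 0.998). Without CD m118 it was 0.63 (adjusted p = 0.998). Rpl37rt, at 0.60 (SE 0.29, adjusted p = 0.998), and Rps19, at -0.21 (SE 0.11, adjusted p = 0.998), came next. Without CD hippocampus m242 the value of Rpl37rt was 0.25.

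In the cortex, Rpl22l1 stood at 30.3, 30.2, 21 and 23.4 in WT and 38, 36.5, 31.2 and 30.8 in CD, which did not overlap (log2 0.36, SE 0.15, unadjusted p = 0.0309, adjusted p = 1). Rplp2 stood at 16.6, 13, 13.9 and 14.7 in WT and 20.8, 15.7, 19.2 and 19.5 in CD, where 1 CD library lay within the WT range (0.36, SE 0.16, adjusted p = 1). Rps2 followed, at 0.23 (SE 0.12, adjusted p = 1).

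In the cerebellum, Rplp1 stood at 86.2, 103, 122 and 97.9 in WT and 151, 137 and 121 in CD, which overlap in 1 library of each (log2 0.42, SE 0.13, unadjusted p = 0.00597, adjusted p = 0.981). Rpl13, a large subunit protein, was at 109, 115, 107 and 95.5 in WT and 73.4, 94.9 and 91.4 in CD, all below WT (-0.30, SE 0.12, adjusted p = 0.981), and at -0.19 without CD cerebellum m118. Rpl5 was at 32.5, 29.9, 37.2 and 35.1 in WT and 21.2, 31 and 13.5 in CD, with 1 CD library inside the WT range (-0.64, SE 0.22, unadjusted p = 0.0118, adjusted p = 0.981). With no filter on low counts Rpl5 alone was called (adjusted p = 0.0407), at -0.63, and over all other settings and leave-outs the adjusted p was 0.455 or more. Its value was -0.36 without CD cerebellum m242 and -0.98 without CD cerebellum m190. All of its 3′ end stretches are shared with another gene and it overlaps Dipk1a. Over the regions together Rpl5 had the smallest p, at -0.27 (SE 0.12, unadjusted p = 0.0329, adjusted p = 1), followed by Rpl41 at 0.20 and Rpl34 at 0.16. Without CD m242 Rpl5 was at -0.14, and without WT m162 Rpl41 was at 0.092.

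The study's reference genes were compared between genotypes. With 4 against 4 libraries the smallest p an exact two-sided test allows is 0.0286. After adjustment over 15 tests that is 0.429 for a single gene, and with 3 against 4 libraries both values are higher. So 1 gene alone could not pass whatever its difference. In exact two-sided permutation tests over 5 genes and 3 regions, on log2(CPM + 0.5), Rpl19 differed by 0.24, 0.01 and 0.27 in hippocampus, cortex and cerebellum (p = 0.4, 1 and 0.286; adjusted over the 15 tests 0.6, 1 and 0.524) and Tbp by 0.24, 0.33 and -0.07 (p = 0.229, 0.457 and 0.8; adjusted 0.524, 0.623 and 0.857). The lowest adjusted p of all 15, with Rplp0, Rpl13a and Rps18, was 0.524.

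Whether the genotype difference varied by region was tested as an interaction in 1 fit of all 22 libraries. None of the 58 genes had an adjusted p below 0.05, nor did any of the 11133 (0.0%). At an unadjusted p below 0.05 there were 3, Rps13, Rps24 and Rpl23, with a background of 3.92%.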

How the data were processed

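The authors mapped CelSeq2 reads with STAR to mm10 and deposited raw counts per RefSeq transcript; how they treated reads that match several genes, and whether reads sharing a unique molecular identifier were collapsed, is not given in the sources used here, so a count may be a molecule or a PCR read. Of 85964 transcripts 69280 (80.6%) were matched to symbols by identifier without version, and the transcript with the highest total represented each gene. The ribosomal protein genes, gene lists and tests were chosen with earlier results of these data known. Genes at 5 CPM in at least 2 libraries were tested with edgeR 4.0.16 (TMM, quasi-likelihood, R 4.3.3) on 6 group means, averaged over genotypes for regions; genotypes were fitted within each region, and over regions with limma 3.58.1 and the mouse as a random block (correlation 0.0294). DESeq2 1.42.0 was an alternative. Tests were checked on simulated data.

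Named genes were, for each pair of regions, the 8 called genes with the largest change in each direction, the 3 smallest p-values between genotypes, reference genes, paralogues, stalk and 5S genes. The 3 regions came from the same mice, so mouse numbers pair libraries; deviations from group means correlated at 0.0862 (hippocampus and cortex), 0.0491 (hippocampus and cerebellum) and -0.00435 (cortex and cerebellum) on average. No replicate pair was alike within sampling noise (chi-square per degree of freedom 5.68 to 17.5). Each library is 1 mouse and region. One count was worth 0.113 to 0.363 CPM, and common biological variation was 15.7%, 16.0% and 14.0% in hippocampus, cortex and cerebellum.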

Additional observations from a re-analysis of the deposited data

Results flagged for a closer look

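In groups of 4 libraries, the highest or lowest library of each named gene was set against the other 3 by Dixon's ratio of gap to range. Of 124 groups 6 passed the 95% limit, and chance alone gives about 1 in 20, or 6.2. In WT cerebellum m240, Rpl21 was at 20.3 CPM against 17.5 to 17.9 in the other libraries, Rpl22l1 at 29.2 against 24 to 24.5, and Rpl37 at 94.2 against 109.7 to 111.3. In CD cortex m190, Rps15 was at 227.9 against 204.7 to 207.1. Rps6 was low in WT cortex m244, at 5.94 against 8.16 to 8.46, and high in WT cerebellum m244, at 8.78 against 6.29 to 6.65.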

How the results depend on the processing

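Tests and medians were rerun under other settings. Of 30 region values of named genes, 17 stayed called under every alternative in which they were tested, and none reversed. The 17 include Rps13 in the cerebellum against the cortex, which was tested in only 20 of the leave-outs. With the mouse as a replicate block, 13, 44 and 31 genes were called (cortex minus hippocampus, cerebellum minus hippocampus, cerebellum minus cortex), and over the regions together no replicate block also gave 0 calls. Cortex against hippocampus was the least stable: 9 called with no filter, 5 in wild-type libraries only, 6 in CD libraries only, and 7 without the 3 hippocampus libraries high in choroid plexus markers, an alternative chosen after seeing the data, against 16. In CD libraries only, 18 were called in the cerebellum against the cortex, and medians were -0.0523 (cortex minus hippocampus) and -0.30 (cerebellum minus cortex). With library totals, medians were -0.22 (cerebellum minus hippocampus), 0.028 (cerebellum minus cortex, reversed) and -0.0087 (CD minus WT cerebellum). With no filter, 1 gene was called in CD minus WT cerebellum. Summing distinct transcripts, the genes held 0.321%, 0.286% and 0.263% of counts in hippocampus, cortex and cerebellum. Leaving out each library gave 11 to 16, 37 to 44 and 27 to 31 calls, medians of -0.15 to -0.12, -0.43 to -0.40 and -0.24 to -0.20, and for CD minus WT 0 calls in each region, with medians of -0.054 to 0.0045 (hippocampus), 0.039 to 0.13 (cortex) and -0.0031 to 0.042 (cerebellum). The causes were not tested.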
